A study of Mus musculus with 12 samples.

Results

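Gapdh, Pgk1 and Gk, 3 genes of energy metabolism, were followed in the left ventricle of wild-type and Miat knockout mice after sham surgery or myocardial infarction (MI). They were chosen by probe name: a custom probe for Gapdh (CUST_14_PI419532418), a custom probe for Gk (CUST_12_PI419532418), and the array's mouse control probes for Gapdh and Pgk1, which come as a 5' and a 3' probe for each gene. The set holds 3 of the 16 genes that could be named on the array and 6 of its 19 named probes. Each custom probe was printed in 20 spots and each control probe in 10, and all 6 probes were well above background on all 12 arrays. The study measured RNA from 12 ventricles of male C57BL/6J mice, each a separate animal on its own 1-colour array, taken 4 weeks after surgery. The 4 groups of 3 arrays were wild type after sham surgery, wild type after MI, knockout after sham surgery and knockout after MI. The knockout removed Miat, a long noncoding RNA, from the whole body. Wild-type mice were 13 to 14 weeks old and knockout mice 15 to 16 weeks, so age and genotype cannot be told apart.

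Glyceraldehyde-3-phosphate dehydrogenase, made from Gapdh, and phosphoglycerate kinase, made from Pgk1, catalyse consecutive steps of glycolysis, the second of which yields ATP. Glycerol kinase, made from Gk, phosphorylates glycerol to glycerol-3-phosphate, a precursor of glycerolipids and an entry point to glycolysis. The adult heart draws most of its energy from fatty acids, and glycolytic genes are known to respond to low oxygen through hypoxia-inducible factor, for which Pgk1 and Gapdh are textbook targets. Gapdh and Pgk1 also serve widely as reference genes for expression measurements, and the array carries control probes for both.

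The 250 bases before the start of each gene are shown, to display the letters of this factor's core motif where they occur. All 3 genes matched a RefSeq promoter of assembly GRCm38.p6: Gapdh at chr6:125165774-125166023 on the minus strand, Pgk1 at chrX:106186850-106187099 on the plus strand and Gk at chrX:85776820-85777069 on the minus strand. Capitals mark the letters ACGTG or GCGTG on either strand, the core of the hypoxia response element.
Gapdh: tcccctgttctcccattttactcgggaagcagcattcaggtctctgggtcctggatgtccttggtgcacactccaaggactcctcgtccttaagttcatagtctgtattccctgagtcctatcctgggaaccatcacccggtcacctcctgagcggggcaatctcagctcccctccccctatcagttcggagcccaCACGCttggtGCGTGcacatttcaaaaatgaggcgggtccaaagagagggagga
Pgk1: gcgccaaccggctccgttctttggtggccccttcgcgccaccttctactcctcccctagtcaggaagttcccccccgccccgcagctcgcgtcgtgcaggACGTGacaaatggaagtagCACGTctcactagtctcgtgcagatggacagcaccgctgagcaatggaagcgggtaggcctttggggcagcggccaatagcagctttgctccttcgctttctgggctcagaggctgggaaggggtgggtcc
Gk: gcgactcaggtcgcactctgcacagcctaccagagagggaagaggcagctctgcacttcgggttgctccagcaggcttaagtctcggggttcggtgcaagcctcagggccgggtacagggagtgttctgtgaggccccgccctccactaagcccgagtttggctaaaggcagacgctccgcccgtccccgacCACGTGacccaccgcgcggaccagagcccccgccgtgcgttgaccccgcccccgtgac
Each window held the core at 2 positions. In Gapdh these were GCGTG once on each strand, in Pgk1 ACGTG once on each strand, and in Gk the same ACGTG read from both strands of 1 overlapping site. The GC box letters GGGCGG, searched on both strands, were at 0 positions in Gapdh, 1 in Pgk1 and 3 in Gk. Of 32851 promoter windows of 250 bases, 38.6% held the core at least once and 32.7% held the GC box. A match is a description of the letters and does not show that a factor binds.

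Between 82.6% and 88.1% of spots on an array were well above background, and precision was limited by there being 3 arrays a group. The values below are log2 signal minus the 75th percentile of the array, so 0 is the level of that percentile. All arrays of wild-type sham, with replicate 1 of knockout sham, were scanned at one time (scan 1), and the other 8 arrays at another (scan 2). For MI in wild type the scan and the surgery were therefore joined, and only the knockout sham arrays, which also differ in age, link the scans. The tissue label was not checked against cell markers, because 0 probes for such markers could be named. Left ventricle after MI holds scar as well as muscle, and in bulk tissue fewer cells of a type and less RNA per cell cannot be told apart.

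Gapdh was lower after MI in wild-type ventricles. At its custom probe the wild-type sham arrays read 8.47, 8.47 and 8.50, and the wild-type MI arrays 8.14, 7.89 and 8.0. The knockout sham arrays read 8.32, 8.47 and 8.77, and the knockout MI arrays 8.16, 8.30 and 8.27. All 3 wild-type MI arrays lay below every other array at this probe, and knockout sham replicate 3 was the highest of the 12. The wild-type means were 8.48 ± 0.015 after sham and 8.01 ± 0.13 after MI, and those of the knockout 8.52 ± 0.23 and 8.24 ± 0.072 (SD, n = 3 each). In order of level, knockout sham and wild-type sham overlapped each other, and knockout MI and wild-type MI followed without overlap.

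**Figure D1:**
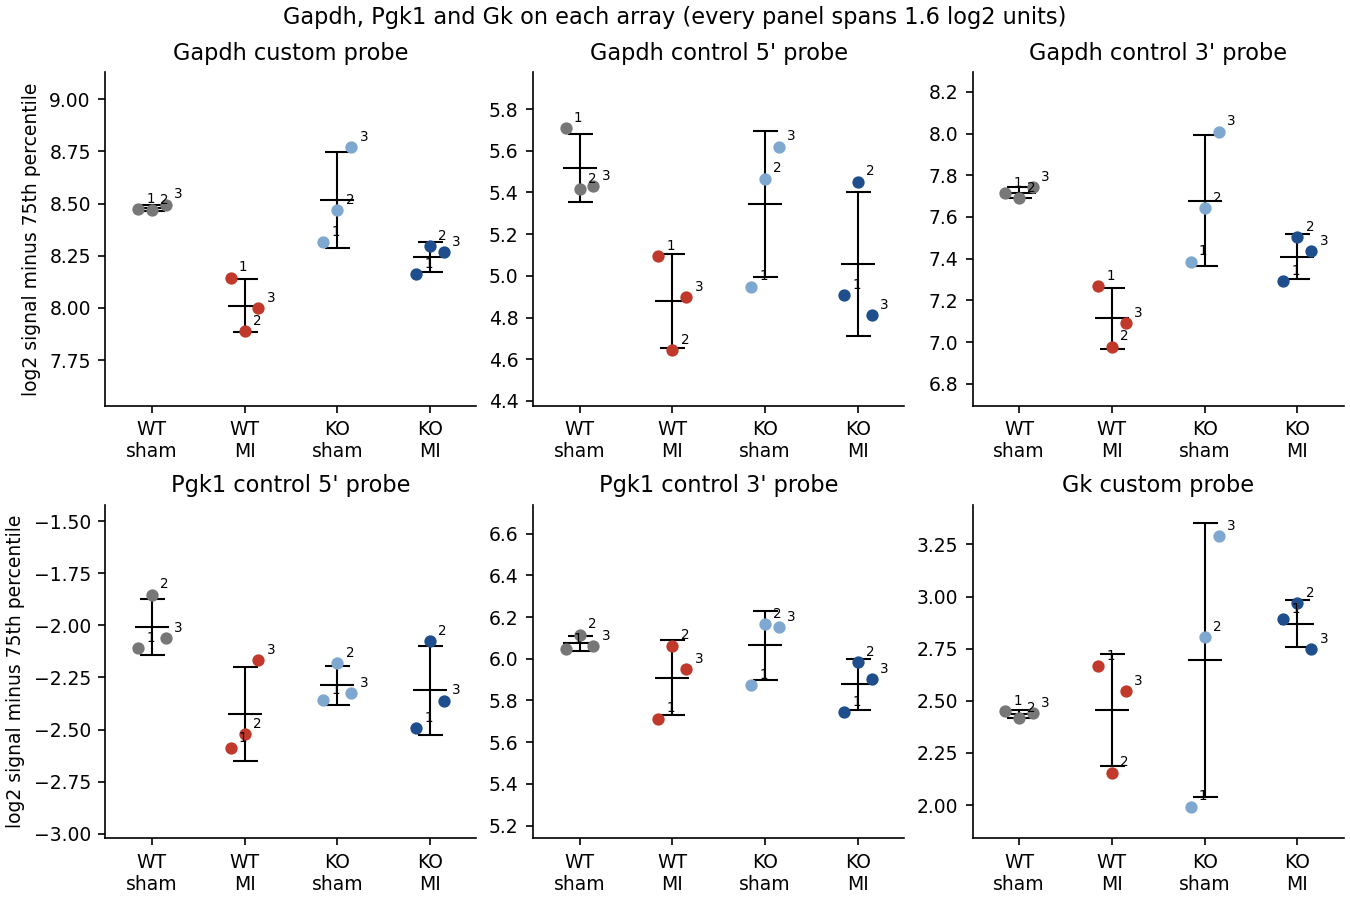
Log2 signal minus the array's 75th percentile (y axis) of each of the 6 probes on the 12 arrays, by group (x axis). Points are arrays with their replicate number, the long bar is the group mean and the whiskers are the SD; at the Gapdh custom probe the wild-type MI arrays sit between 7.89 and 8.14, below the wild-type sham arrays at 8.47 to 8.50.

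The Gapdh custom probe fell by 0.47 on the log2 scale after MI in wild type (SE 0.12, 95% interval -0.74 to -0.20), a level of 0.723 times sham, with an adjusted p of 0.023 in limma. All 3 MI arrays were below all 3 sham arrays, and the exact two-sided permutation p was 0.1, the smallest that 3 arrays against 3 can give. With scan as a fixed block the difference was -0.77 (adjusted p = 0.038 in limma). No wild-type group spanned both scans, so that scan term came only from knockout sham replicate 1 against replicates 2 and 3. Quantile normalization also gave -0.77 and scaling on the other named probes -0.89, more than 1.5 times the main value. Of the genes in the latter scaling, Actb (1.23), Ppia (1.20), B2m (0.98), Gusb (0.86), Tuba1b (0.86) and Rpl13a (0.63) were called higher after MI. The other genes of the scaling were not called in this wild-type comparison in limma. This scaling was added after seeing the data and moved the median of all probes from -0.04 to -0.46. The limma call did not hold without wild-type MI replicate 2 (-0.41, adjusted p = 0.067) or without wild-type sham replicate 1 (-0.47, adjusted p = 0.069), 2 (-0.47, adjusted p = 0.072) or 3 (-0.46, adjusted p = 0.059). Calls over all 54035 probes also fell in these fits, from 13599 to 6346, 4213, 3536 and 7954 in the same order.

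**Figure D2:**
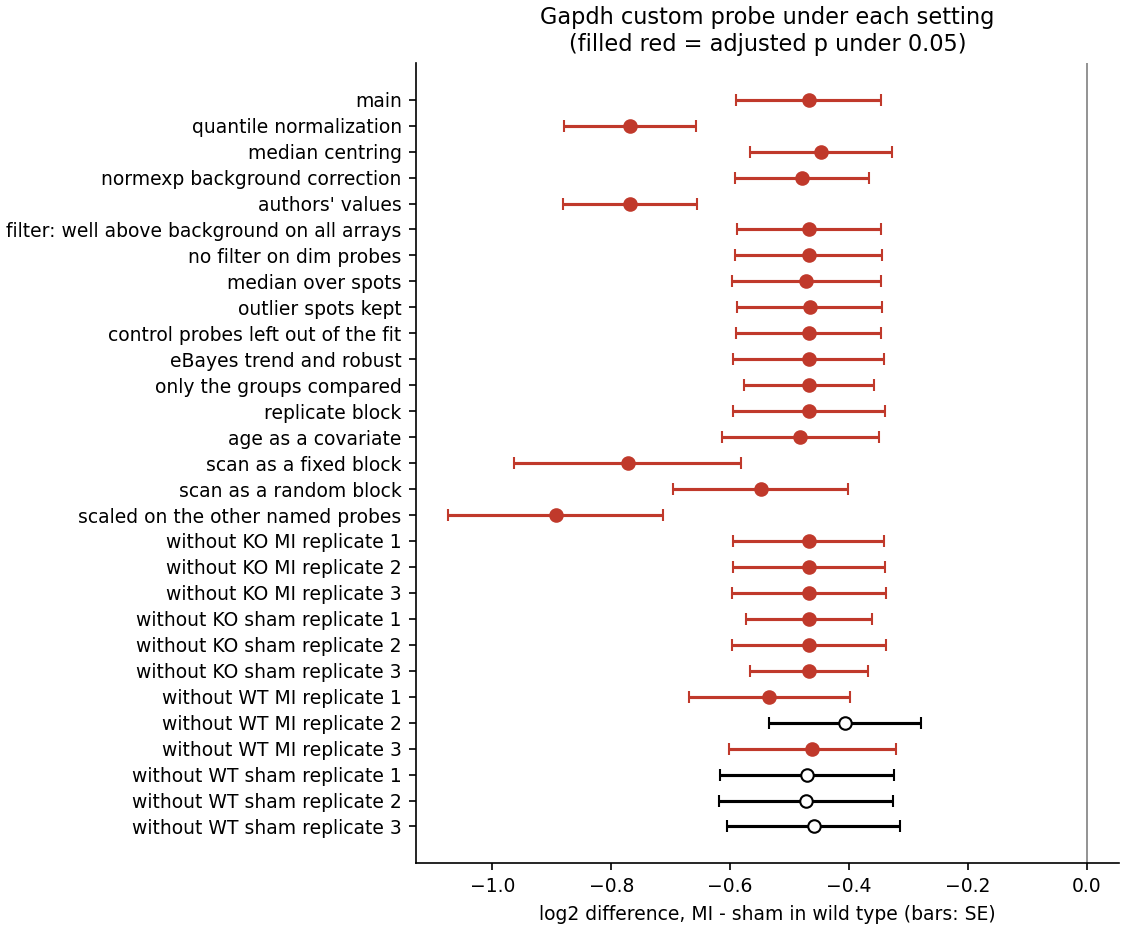
Log2 difference between MI and sham in wild type at the Gapdh custom probe (x axis) under each processing setting and with each array left out (y axis). Bars are the SE and filled red points have an adjusted p under 0.05 in limma; all values are below 0, from -0.89 to -0.41, and the open points are the 4 settings in which a wild-type array was left out and the call was lost.

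The array's control probes gave the same direction. The Gapdh 3' probe read 7.72, 7.69 and 7.74 in wild-type sham and 7.27, 6.98 and 7.09 in wild-type MI. In the knockout it read 7.39, 7.64 and 8.01 after sham and 7.29, 7.5 and 7.43 after MI. Again the 3 wild-type MI arrays were the lowest of the 12. This probe fell by 0.60 (SE 0.15, 95% interval -0.93 to -0.27, adjusted p = 0.019 in limma), a level of 0.658 times sham. It fell by 1.04 with scan as a fixed block (adjusted p = 0.023 in limma), where the scan term again rested on knockout sham replicate 1. Its call was lost without the same 4 arrays as above, with adjusted p values of 0.060 without wild-type MI replicate 2 and 0.061, 0.061 and 0.051 without the 3 sham arrays in limma.

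The Gapdh 5' probe read 5.71, 5.42 and 5.43 in wild-type sham and 5.09, 4.65 and 4.90 in wild-type MI. The groups did not overlap, but the difference of -0.64 (SE 0.21) missed the threshold, with an adjusted p of 0.051 in limma. It passed under quantile normalization, where it was -0.95 (adjusted p = 0.017 in limma), and with scan as a fixed block, where it was -1.23 (adjusted p = 0.048 in limma). The scan term there rested on knockout sham replicate 1, so the block does not separate MI from scan within wild type. In the knockout this probe read 4.95, 5.47 and 5.62 after sham and 4.91, 5.45 and 4.81 after MI, which overlapped. Mouse genomes hold many processed copies of Gapdh, and the signal of such copies was not separated from that of the gene.

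Pgk1 was followed by its control probes alone. The 3' probe read 6.05, 6.12 and 6.06 in wild-type sham and 5.71, 6.06 and 5.95 in wild-type MI, which overlapped at 1 MI array. In the knockout it read 5.87, 6.17 and 6.15 after sham and 5.74, 5.99 and 5.90 after MI, where the groups also overlapped. The difference in wild type was -0.17 (SE 0.12, 95% interval -0.44 to 0.11) with an adjusted p of 0.31 in limma. Under quantile normalization it was -0.47 and passed (adjusted p = 0.016 in limma), so whether this probe is called depends on the scaling. Without wild-type MI replicate 1 it was -0.067.

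The Pgk1 5' probe was dim, with a mean signal of 116 in wild-type sham on the linear scale. It read -2.11, -1.85 and -2.06 in wild-type sham and -2.59, -2.52 and -2.17 in wild-type MI. All 3 MI arrays were lower than all 3 sham arrays, by -0.42 on average (SE 0.15, 95% interval -0.74 to -0.10), and the adjusted p was 0.057 in limma. With normexp background correction the difference was -0.21 (adjusted p = 0.119 in limma), and with scaling on the other named probes -0.84 (adjusted p = 0.0071 in limma). That scaling was added after seeing the data and moved the median of all probes from -0.04 to -0.46. Such scaling shifts every probe of an array by the same amount. Relative to the median the Pgk1 5' probe is therefore at -0.38 with or without it, by construction. The knockout arrays read -2.36, -2.18 and -2.33 after sham and -2.49, -2.08 and -2.36 after MI, with the MI arrays spread around the sham arrays.

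Gk showed no called change in any comparison. Its probe read 2.45, 2.42 and 2.44 in wild-type sham and 2.67, 2.16 and 2.55 in wild-type MI, so the MI arrays lay on both sides of the sham arrays. The difference was 0.02 (SE 0.27, 95% interval -0.57 to 0.61, adjusted p = 0.96 in limma), and it was below 0 under quantile normalization (-0.18) and with scan as a fixed block (-1.04). That interval includes a change in either direction of the size seen at the Gapdh custom probe, but not a fall of the size seen at the Gapdh 3' or 5' probe. In the knockout the probe read 1.99, 2.80 and 3.29 after sham and 2.89, 2.97 and 2.75 after MI. The 3 knockout sham arrays held both the lowest and the highest of the 12 readings, with an SD of 0.66, larger than that of 95.6% of all probes tested in this group. The lowest of them, replicate 1, is the one knockout array of scan 1. Without it the Gk difference for MI in the knockout turned from 0.17 to -0.18, and the genotype difference after sham went from 0.26 to 0.61. Without knockout sham replicate 3, the highest, the same differences were 0.47 and -0.038. In the same knockout sham arrays Gapdh had the same order, at 8.32, 8.47 and 8.77 for the custom probe.

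Counted together, 2 of the 6 probes were called for MI in wild type in limma, both lower and both Gapdh. Over all 54035 probes tested 25.2% were called and 13% were called lower. The 3 Gapdh probes report 1 gene and the Pgk1 probes another, so these 6 are not independent. Of the 6, 4 did not overlap between the groups, all lower after MI. Among all probes 50.5% did not overlap in this comparison and 27.9% did not overlap with MI lower. The median difference of the 6 was -0.44, against -0.04 over all probes.

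In the knockout 0 of the 6 probes were called for MI against sham, as were 0% of all probes in limma. At an unadjusted p under 0.05 there were 4922 of all probes and 1 of the 6, the Gapdh custom probe. That probe differed by -0.28 (SE 0.12, 95% interval -0.55 to -0.01, adjusted p = 0.54 in limma), and its groups did not overlap, as in 16.4% of all probes. Within scan 2 alone, which leaves out knockout sham replicate 1, it was -0.38 (adjusted p = 0.57 in limma), whereas under quantile normalization it was 0.043 and without knockout sham replicate 3 it was -0.15. The Gapdh 3' probe differed by -0.27 and the 5' probe by -0.29, and both overlapped. Without knockout sham replicate 3 these were -0.10 and -0.15, and without replicate 1 of that group -0.42 and -0.49. Without knockout MI replicate 2 or 3 the 5' probe was at -0.48 or -0.17. For Pgk1 the differences were -0.02 (5' probe) and -0.19 (3' probe), and for Gk 0.17. The median over the 6 was -0.23.

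**Figure D3:**
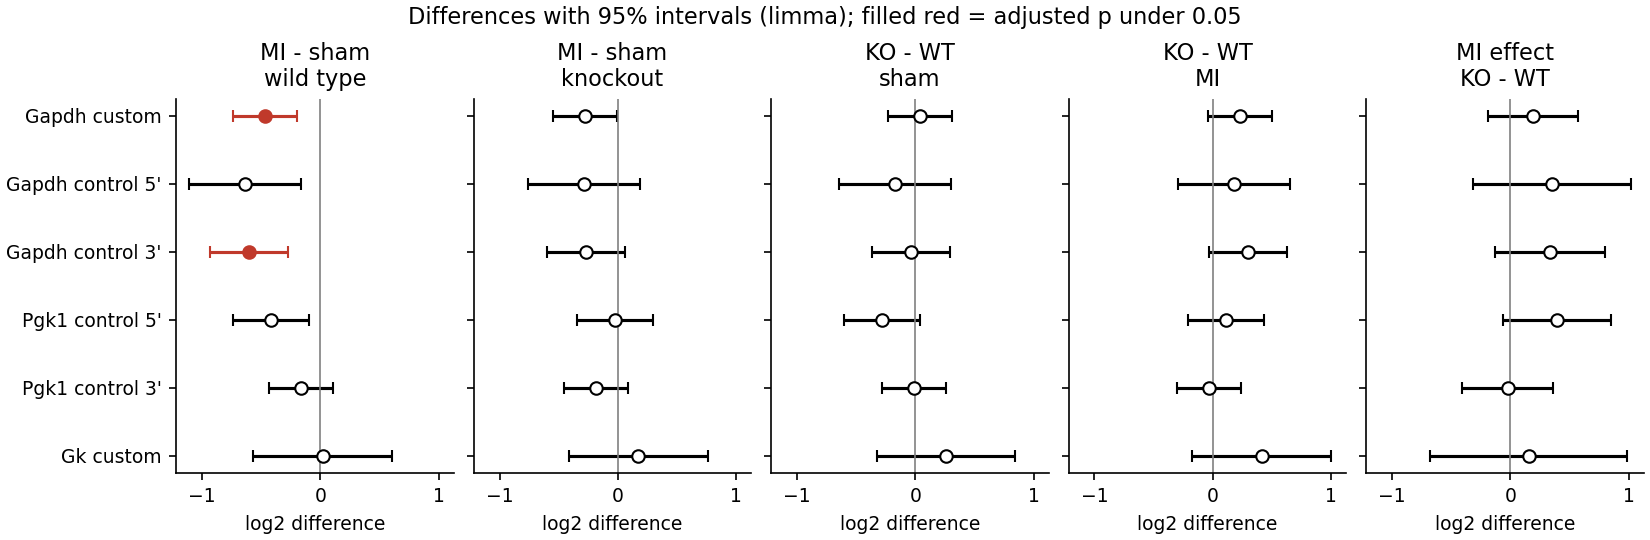
Log2 difference (x axis) with its 95% interval from limma for each of the 6 probes (rows) in the 4 comparisons between groups and the difference of the MI effects (panels). Filled red points, the Gapdh custom probe at -0.47 and the Gapdh 3' probe at -0.60 for MI in wild type, have an adjusted p under 0.05, and all others are open.

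A term for genotype by surgery asked whether MI acted differently in the genotypes. None of the 6 probes was called in limma, against 2.93% of all probes, and none had an unadjusted p under 0.05, where all probes numbered 13866. The MI effect in the knockout minus that in wild type was 0.19 for the Gapdh custom probe (SE 0.17, 95% interval -0.19 to 0.57, adjusted p = 0.49 in limma). It was 0.33 for the Gapdh 3' probe and 0.35 for the 5' probe. For Pgk1 it was 0.40 at the 5' probe (SE 0.20, adjusted p = 0.25 in limma) and -0.02 at the 3' probe, and for Gk it was 0.15. So the Gapdh calls in wild type and their absence in the knockout do not amount to a shown difference between genotypes. Under quantile normalization the Gapdh custom value was 0.81 and passed (adjusted p = 0.047 in limma). All wild-type sham arrays were of scan 1 and all wild-type MI arrays of scan 2, whereas in the knockout only sham replicate 1 was of scan 1. The differences of the MI effects are therefore partly joined with scan.

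Between the genotypes after sham surgery 0 of the 6 probes were called in limma, against 0.0296% of all probes, and 0 had an unadjusted p under 0.05, against 9079 of all probes. The Gapdh custom probe differed by 0.04 (95% interval -0.23 to 0.31), and Gk by 0.26 (95% interval -0.33 to 0.85). Within scan 1, where the knockout is 1 array, these were -0.16 and -0.44. The Pgk1 5' probe was lower in all 3 knockout arrays than in all 3 wild-type arrays, by -0.28 (SE 0.15, adjusted p = 0.36 in limma). It was the 1 probe of the 6 without overlap, and 31.3% of all probes did not overlap here.

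After MI 0 of the 6 probes were called between the genotypes in limma, against 22.4% of all probes, and 0 had an unadjusted p under 0.05, against 22296 of all probes. All 6 arrays of this comparison were of scan 2. The Gapdh custom probe was higher in all 3 knockout arrays, by 0.23 (SE 0.12, 95% interval -0.04 to 0.50, adjusted p = 0.175 in limma), and the Gapdh 3' probe by 0.30 (SE 0.15, adjusted p = 0.16 in limma). Gk was higher in all 3 knockout arrays as well, by 0.41 (SE 0.27, 95% interval -0.17 to 1.0, adjusted p = 0.26 in limma). These 3 probes of 6 did not overlap, as did 45% of all probes. Under quantile normalization the difference was 0.60 for the Gapdh custom probe (adjusted p = 0.015 in limma) and 0.66 for the 3' probe (adjusted p = 0.020 in limma), and both passed. This comparison shares its wild-type MI arrays with the one of MI in wild type.

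The 5' and 3' probes of a gene were next compared within each array, where scaling between arrays has no part. The labelling used random priming along the transcript, per the labels' protocols. The 3' probe of Gapdh exceeded the 5' probe by 2.01, 2.27 and 2.31 in wild-type sham and by 2.17, 2.33 and 2.19 in wild-type MI. In the knockout the gap was 2.44, 2.17 and 2.39 after sham and 2.38, 2.05 and 2.62 after MI. The gap of these mouse Gapdh probes overlapped between the groups in every comparison. It changed by 0.04 with MI in wild type (exact permutation p = 0.8) and by 0.02 in the knockout (exact permutation p = 1). A gap between probes also depends on the probes themselves, so only its change between groups is read.

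For Pgk1 the gap was 8.16, 7.97 and 8.12 in wild-type sham and 8.30, 8.58 and 8.12 in wild-type MI. It was 8.23, 8.35 and 8.48 in knockout sham and 8.24, 8.06 and 8.26 in knockout MI. The change with MI was 0.25 in wild type and -0.16 in the knockout (exact permutation p = 0.3 for each). All 3 knockout sham arrays had a larger gap than all 3 wild-type sham arrays, by 0.27 (exact permutation p = 0.1). With normexp background correction that difference was 0.03, so the difference depended on the background correction.

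**Figure D4:**
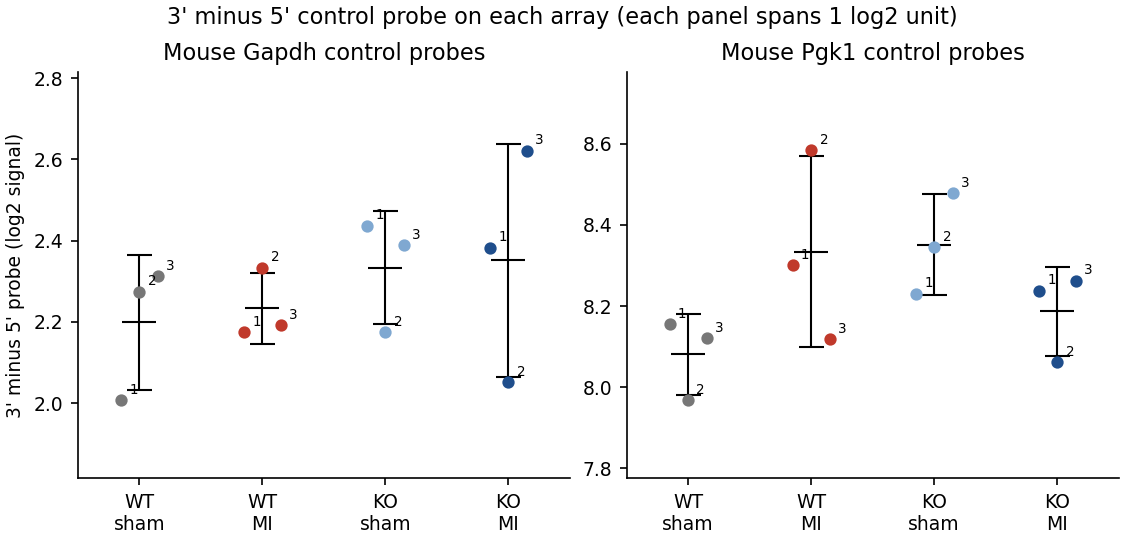
Signal of the 3' control probe minus that of the 5' control probe on the log2 scale (y axis) for Gapdh (left) and Pgk1 (right), by group (x axis), with arrays as numbered points, group means as long bars and SD as whiskers. For Gapdh the 12 arrays range from 2.01 to 2.62 with all groups overlapping, and for Pgk1 from 7.97 to 8.58.

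Across the 12 arrays the probes of Gapdh moved together. The custom probe and the 3' probe had a Pearson r of 0.99 (permutation p = 2e-05, the smallest these permutations can give, adjusted over 4 pairs 8e-05) and a Spearman rho of 0.97 (permutation p = 2e-05). The r was 0.98 without the 2 arrays farthest from the median and 0.99 for deviations from the group means. The custom probe and the 5' probe had an r of 0.84 (permutation p = 0.00042, adjusted 0.00056) and a rho of 0.83 (permutation p = 0.0013), with an r of 0.77 without the 2 farthest arrays and 0.73 within groups. The 5' and 3' probes had an r of 0.87 (permutation p = 0.00016, adjusted 0.00032) and a rho of 0.82 (permutation p = 0.0020), with 0.84 and 0.77 in the same order. Gk, another gene, had a within-group r of 0.89, 0.79 and 0.91 with the Gapdh custom, 5' and 3' probes. Over the 12 arrays, without removing the group means, these were 0.42, 0.40 and 0.44. Agreement within groups was therefore not particular to probes of 1 gene.

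The Pgk1 probes tracked each other less closely, although the difference between the correlations was not tested. Their r was 0.62 (permutation p = 0.032, adjusted 0.032) and their rho 0.49 (permutation p = 0.11, adjusted 0.11). The r was 0.40 without the 2 arrays farthest from the median and 0.55 within groups, so the relation rests in part on those arrays. The Pgk1 5' probe and the Gapdh 5' probe, of different genes, also had an r of 0.62, and 0.31 within groups. Spots of 1 probe on 1 array had a median SD of 0.032 for the Gapdh custom probe, which is smaller than its SD between arrays of a group in wild-type MI and in both knockout groups.

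The array also carries human-named and rat-named control probes for both genes, 8 in all, which can show whether the pattern was confined to 1 probe design. They are given as differences of group means. In wild type all 8 were lower after MI, by -0.65 at the rat GAPDH 3' probe to -0.27 at the human PGK1 3' probe, and none of the 8 overlapped between groups. Together with the 5 mouse Gapdh and Pgk1 probes, 13 of 13 were lower and 12 of them did not overlap, against 27.9% of all probes that did not overlap with MI lower. In the knockout 10 of the 13 were lower after MI and 1 did not overlap, the Gapdh custom probe. Among all probes 9.0% did not overlap with MI lower in the knockout. The knockout differences of the 13 ran from -0.29 to 0.12. Between the genotypes after sham, 10 of the 13 were lower in the knockout and 4 of these did not overlap, against 14.3% of all probes. After MI 1 of the 13 was lower in the knockout. There 3 were higher without overlap, against 26.8% of all probes, and the largest difference was 0.64 at rat GAPDH 3'. Some of these probes were dim, with linear signals of 21 to 37 at human PGK1 5' and 61 to 116 at rat PGK1 5'. At human PGK1 5', 7 of 10 spots were well above background in wild-type MI replicate 1 and 9 of 10 in replicate 3. Probes for these species may bind the same mouse RNA, so they are repeat readings of 2 genes and not added evidence from other genes. Their gaps between 3' and 5' probes did not all match the mouse pairs: the rat GAPDH gap was larger in knockout sham than in wild-type sham by 0.50 without overlap (exact permutation p = 0.1), and the rat PGK1 gap changed by -0.31 with MI in the knockout without overlap (exact permutation p = 0.1).

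**Figure D5:**
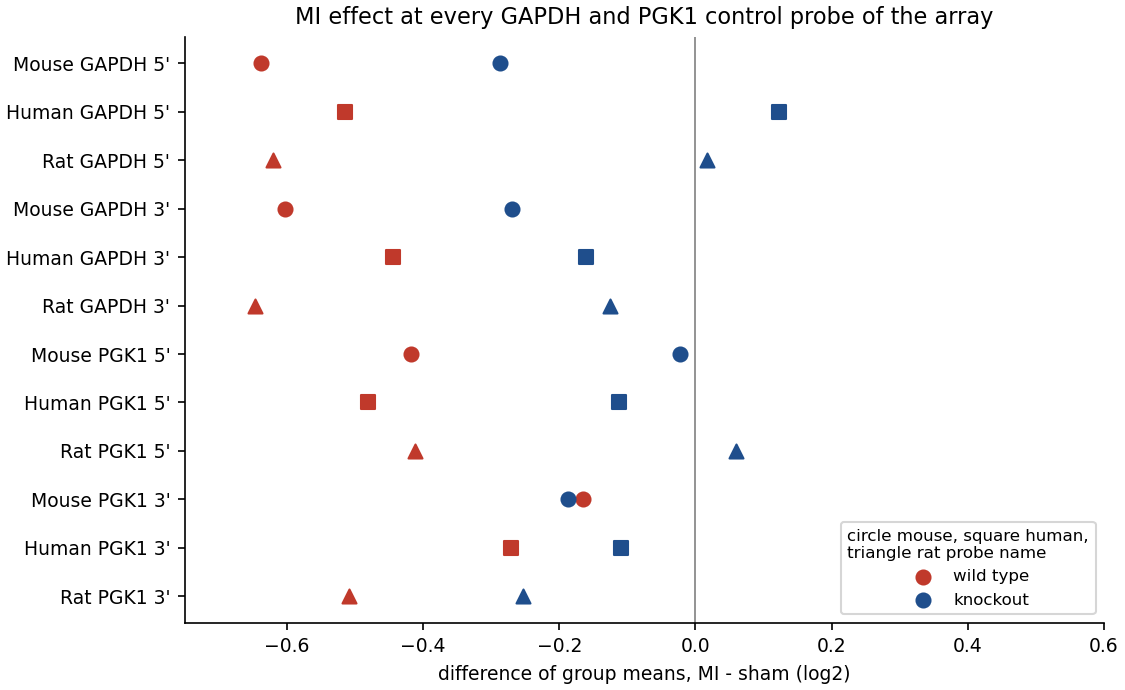
Difference of group means between MI and sham on the log2 scale (x axis) at each mouse-, human- and rat-named GAPDH and PGK1 control probe (y axis), in wild type (red) and in the knockout (blue). All wild-type points lie below 0, between -0.65 and -0.17, and the knockout points lie between -0.29 and 0.12.

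Gk and Pgk1 were also set against Gapdh within each array. Gk rose relative to Gapdh by 0.49 after MI in wild type, from -6.04 ± 0.019 to -5.56 ± 0.16 (SD, n = 3 each), with no overlap (exact permutation p = 0.1). In the knockout the same change was 0.45, with overlap (exact permutation p = 0.2). The Pgk1 3' probe relative to the Gapdh 3' probe changed by 0.44 in wild type with no overlap (exact permutation p = 0.1) and by 0.08 in the knockout (exact permutation p = 1). At the 5' probes the same ratio changed by 0.22 in wild type (exact permutation p = 0.4) and by 0.26 in the knockout (exact permutation p = 0.3), both with overlap, so the pattern of the 3' probes was not seen there. For the 3' probes the wild-type groups came close, at -1.58 in sham replicate 2 and -1.56 in MI replicate 1. Such a ratio compares 2 probes and does not say which of them moved, and unequal change of the 2 genes was not shown by it. Probes of the same gene also differed in size of change. The Gapdh 3' probe relative to the Gapdh custom probe changed by -0.14 in wild type without overlap (exact permutation p = 0.1). The Gapdh 5' probe relative to the custom probe changed by -0.17 with overlap (exact permutation p = 0.3). The Pgk1 3' probe relative to the Pgk1 5' probe changed by 0.25, also with overlap (exact permutation p = 0.3).

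Of the glycolysis genes and the genes of glycerol metabolism listed for comparison, 0 could be named on the array beyond the 3 described. Among the 13 other named genes, the one most like Gapdh over the 12 arrays was G6pd2, a homologue of the glucose-6-phosphate dehydrogenase of the pentose phosphate pathway, with an r of 0.73 to the custom probe, 0.80 to the 5' probe and 0.77 to the 3' probe. Second was Ldhal6b, a lactate dehydrogenase homologue, with r of 0.44, 0.56 and 0.49. Neither was called for MI in wild type in limma, with differences of -0.15 each (adjusted p = 0.165 for G6pd2 and 0.33 for Ldhal6b). The lowest r was that of Gusb, a lysosomal glucuronidase, to the custom and 3' probes (-0.86 each) and that of Actb, cytoplasmic actin, to the 5' probe (-0.79). Gusb and Actb were both called higher for MI in wild type in limma, by 0.86 (adjusted p = 0.018) and 1.23 (adjusted p = 0.0077). The Pgk1 5' probe was most like Hsp90ab1, a chaperone, at 0.71 and G6pd2 at 0.70, and least like Actb at -0.69. The Pgk1 3' probe was most like Hprt at 0.53 and Nono at 0.46, and least like Actb at -0.30. Gk was most like Ldhal6b at 0.48 and Tfrc at 0.43, and least like Rpl13a at -0.60. These correlations share the arrays and their scaling and are given as a description.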

How the data were processed

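Spot intensity came from the deposited scanner files, which the authors extracted with Agilent Feature Extraction (version 11.0.1.1, per the submitters' processing notes) with background subtraction, per the file headers. Other columns are quality flags (well above background, outlier, saturated) per the file headers. The authors' processed table, deposited on a log2 scale as judged against the scanner values (r at least 0.9988 per array, column medians 6.91), served as an alternative, with its normalization not given in the sources used here. Random priming amplified the RNA left after ribosomal RNA removal, with Cy3 as the dye, per the labels' protocols.

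Outlier-flagged spots were left out, log2 processed signal was averaged per probe, and the 75th percentile of non-control spots on that array was subtracted. Probes well above background in most spots on at least 3 arrays were tested, 54035 in all, including the 4 Gapdh and Pgk1 control probes named above; 15 probes named as negatives were left out. Groups were compared with limma 3.58.1 (lmFit, eBayes) in R 4.3.3, in 1 fit over 12 arrays, with Benjamini-Hochberg adjustment over all probes tested; called means an adjusted p under 0.05. The script was tested on simulated data. Single values went through exact permutation tests (two-sided), correlations through 100000 permutations with scipy 1.17.1. Figures were drawn with matplotlib 3.10.9.

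The 15 custom probes with a transcript accession were all matched to RefSeq symbols (assembly GRCm38.p6), and the other probes stay unnamed, so the planned lists of pathway genes and cell markers could not be read beyond the genes described. Every probe of the 3 genes is named, with, for each, the 2 other named genes of highest correlation and the 1 of lowest. Miat was not analysed here, so the knockout label was not checked. The genes and lists were chosen with earlier results of these data known.

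Alternatives were quantile normalization, median centring, normexp (offset 50), the authors' values, other filters and spot summaries, the control probes left out of the fit, eBayes with trend and robust set, fits of the groups compared, replicate number, age or scan as a term, fits within a scan and leaving out each array. Scaling on the other named probes was added after seeing the data.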

Additional observations from a re-analysis of the deposited data

How the results depend on the processing

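For MI against sham in wild type, the Gapdh custom and 3' probes stayed below 0 and under the threshold in limma in every setting tried except leaving out single arrays. Both calls were lost without wild-type MI replicate 2 or any 1 wild-type sham array, so the number of probes called ran from 0 to 4 over the arrays left out. In the fits with 0, calls over all probes were 3536 to 7954, against 13599 with every array. In the fit with 4, without knockout MI replicate 2, they were 13217. The differences ran from -0.53 to -0.41 (Gapdh custom), -0.68 to -0.54 (Gapdh 3'), -0.75 to -0.52 (Gapdh 5', which passed without knockout MI replicate 2 or knockout sham replicate 1 or 3), -0.55 to -0.34 (Pgk1 5', which passed without knockout MI replicate 2 or wild-type MI replicate 3), -0.24 to -0.067 (Pgk1 3') and -0.086 to 0.17 (Gk). The other differences that changed sign when 1 array was left out were never called. For MI in the knockout they ran from -0.14 to 0.069 (Pgk1 5') and -0.18 to 0.47 (Gk), and the Gapdh differences, which kept their sign, from -0.38 to -0.15 (custom), -0.42 to -0.10 (3') and -0.49 to -0.15 (5'). For the genotypes after sham they ran from -0.086 to 0.14 (Gapdh custom), -0.31 to 0.025 (Gapdh 5'), -0.20 to 0.11 (Gapdh 3'), -0.062 to 0.085 (Pgk1 3') and -0.038 to 0.61 (Gk). After MI they ran from -0.020 to 0.30 (Gapdh 5'), -0.0018 to 0.24 (Pgk1 5') and -0.13 to 0.045 (Pgk1 3'). For the difference of the MI effects they ran from -0.12 to 0.056 (Pgk1 3') and -0.20 to 0.45 (Gk).

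Of the settings run, only other scalings between arrays gave calls among the 6 probes outside MI in wild type. Quantile normalization and the authors' values gave, in that order, -0.95 and -0.95 (Gapdh 5'), -0.47 and -0.47 (Pgk1 3') and -0.18 and -0.20 (Gk) for MI in wild type, with 4 probes called in each. Over all probes these settings called 14265 of 54035 and 14245 of 53945 in that comparison. For Gapdh custom they gave 0.043 and 0.045 for MI in the knockout, -0.21 and -0.21 for the genotypes after sham, 0.60 and 0.60 after MI, and 0.81 and 0.81 for the difference of the MI effects, the last 2 called. For the genotypes after MI they gave 0.66 and 0.64 (Gapdh 3', called, 2 probes in all) and 0.26 and 0.27 (Pgk1 3'), and for the difference of the MI effects 0.44 and 0.45 (Pgk1 3'), where 1 probe was called. Over all probes they called 11513 and 11557 for the genotypes after MI, and 718 and 768 for the difference of the MI effects. Scaling on the 13 other named genes, chosen after seeing the data, moved the median of all probes for MI in wild type from -0.04 to -0.46. Several of these genes were themselves called higher after MI in wild type, as given above. The scaling gave -1.06 (Gapdh 5'), -0.84 (Pgk1 5'), -0.59 (Pgk1 3') and -0.41 (Gk), with 5 probes called. Because it shifts every probe of an array equally, Gapdh custom relative to that median is at -0.43, as in the main setting, by construction. Over all probes this scaling called 26842 of 54035 for MI in wild type. For the genotypes it gave -0.06 (Gapdh custom) after sham, and 0.57 (Gapdh custom), 0.64 (Gapdh 3') and 0.31 (Pgk1 3') after MI, with 2 probes called there, against 21036 over all probes. It gave 0.42 for the difference of the MI effects (Pgk1 3'). Median centring turned the Pgk1 3' genotype difference after sham to 0.012.

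With scan as a fixed block, where the scan term rested on knockout sham replicate 1, the values were -1.23 (Gapdh 5', called) and -1.04 (Gk) for MI in wild type, -0.18 (Gk) for MI in the knockout, -0.16 (Gapdh custom) and -0.44 (Gk) for the genotypes after sham, and 0.17 (Pgk1 3') for the difference of the MI effects. Scan 1 alone gave the same -0.16 and -0.44, and scan 2 alone the same -0.18. With scan as a random block they were -0.26 (Gk, MI in wild type), -0.015 (Gapdh custom, genotypes after sham) and 0.03 (Pgk1 3', difference of the MI effects). With age as a covariate they were -0.063 (Gk, MI in wild type), 0.037 (Pgk1 5', MI in the knockout), 0.10 (Gapdh 3') and 0.30 (Pgk1 3') for the genotypes after sham, 0.47 (Pgk1 3') after MI and 0.165 (Pgk1 3') for the difference of the MI effects. Normexp gave -0.66 (Gapdh 5', called), -0.21 (Pgk1 5') and -0.0011 (Gk) for MI in wild type, -0.0039 (Gapdh custom) for the genotypes after sham and 0.03 (Pgk1 3') for the difference of the MI effects. It moved the Pgk1 gap between 3' and 5' probes to 0.029 (MI in wild type) and 0.030 (genotypes after sham). For MI in wild type, requiring signal above background on all arrays gave -0.64 (Gapdh 5') and -0.42 (Pgk1 5'), both called, 4 probes in all. That filter left 48129 probes, of which 13678 were called. A fit of the groups compared gave -0.64 (Gapdh 5', called), and keeping outlier spots -0.0056 (Gk). The median over spots gave -0.43 (Pgk1 5', called) and 0.0010 for MI in the knockout at that probe. The cause of these changes was not tested.

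Arrays with the same replicate number did not deviate together from their group means, with correlations of -0.33 to 0.29 (median 0.026), against -0.30 to 0.31 (median -0.058) for different numbers, so the numbers were not taken as pairs. A fit with the replicate number as a block gave -0.47 for Gapdh custom and -0.60 for Gapdh 3' for MI in wild type (adjusted p = 0.040 and 0.034 in limma), with 10147 of all probes called against 13599, and changed no call of the 6 probes.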
